A study of Mus musculus with 18 samples.

Results

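MicroRNA processing and Argonaute genes are described here from the mRNA of round spermatids (RS), haploid male germ cells between the end of meiosis and the start of elongation. The 10 genes were taken by name from the 54232 genes of the deposited count table, and each of them was among the 21058 genes that passed the filter on low counts. They are Drosha and Dgcr8, Xpo5, Dicer1, Tarbp2 and Prkra, and the Argonautes Ago1, Ago2, Ago3 and Ago4. RS were isolated from the testes of mice aged 75 to 85 days that were WT, KO or KI, and each of these genotypes had 6 libraries. The cells were prepared by enzymatic digestion of the testis and sedimentation through a density gradient. The KO animals lack GRTH, an RNA helicase of germ cells and Leydig cells that is encoded by Ddx25. KI mice carry a human GRTH gene with a missense mutation and lack the phosphorylated form of the protein. The study asked which transcripts of RS depend on GRTH and on its phosphorylated form, and the present genes belong to the pathway that makes and uses microRNAs.

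In this pathway the nuclear enzyme Drosha, held by its partner Dgcr8, cuts a hairpin out of a long primary transcript. Exportin 5 carries the hairpin to the cytoplasm, where Dicer, with the double-stranded RNA-binding proteins Tarbp2 and Prkra, cuts it to a short duplex. An Argonaute protein keeps a single strand of the duplex and is led by it to messenger RNAs, which are then translated less or degraded, and in male germ cells loss of this pathway is known to disturb spermatogenesis.

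Each library held between 18766971 and 26776555 counted reads. Levels are given as CPM, that is counts scaled to a common library total with edgeR's TMM factors. Changes are log2 fold changes with a standard error (SE), or a 95% interval, from edgeR's quasi-likelihood model of genotype over all 18 libraries, and a gene was called where the Benjamini-Hochberg adjusted p was under 0.1. Ddx25, the targeted gene, had 538 to 607 CPM in WT and 47.7 to 90.9 CPM in KO, while 5 KI libraries had 0.0456 to 0.519 CPM. The library labelled KI 4 went against its label with 56.9 CPM of Ddx25, a level of the KO range, so some KI results are also given without it. All other KI values include it, among them those of single genes in the pathway lists, microRNA loci, marker sums and Argonaute shares. The counts of that library and of KO 2 were the closest of any pair, and 6 other pairs, each within a genotype (WT 1 and 2, WT 3 and 4, WT 5 and 6, KO 4 and 5, KI 1 and 2, KI 3 and 5), stood nearer to each other than the rest. No label says which libraries came from separate mice, so the p-values measure the spread between these libraries, which may in part be technical.

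Markers of round spermatids were present in each genotype, with summed levels of 600 to 1060 CPM in WT, 428 to 1010 in KO and 453 to 638 in KI over 8 genes, with every marker above 1 CPM. Of these 8 markers, 1 was called lower in KO and 4 in KI, with median log2 fold changes of -0.15 and -0.45. Markers listed for other cell types were also read, and some of them differed by genotype as well. The elongating spermatid list includes Tnp2 and Prm2, whose mRNA the paper describes as transcribed already in RS. Its sum therefore does not stand for elongating cells alone. The 10 elongating spermatid markers summed to between 15700 and 21700 CPM in WT, to between 1840 and 4670 in KO and to between 2450 and 3770 in KI, and all 10 were called lower in both. The 6 Leydig cell markers were all called higher in both, with sums of 10.8 to 22.4 CPM in WT, 33.9 to 57.9 in KO and 14.5 to 74.4 in KI. Spermatocyte markers, 10 in number, summed to 1450 to 1780 CPM in WT, 1430 to 2070 in KO and 1450 to 1760 in KI. Of them, 3 were called higher and 3 lower in KO, and 2 higher and 2 lower in KI. In bulk RNA of this kind, fewer cells of a type and less RNA per cell cannot be told apart.

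Of the 10 genes, Ago1 and Dicer1 rose in KO and Ago1 and Ago4 rose in KI. The other 8 in each comparison did not pass the test. The 2 genes called in KO stand beside 16.4% of all tested genes that were called higher and 13.5% called lower. In KI, 2 of 10 stand beside 16.1% called higher and 15.4% called lower. Without the library labelled KI 4, the called genes in KI were again Ago1 and Ago4, beside 14.5% of all genes called higher and 15.8% called lower. None of the 10 was called past a change of 1 log2 unit by edgeR's glmTreat in KO, where 1.73% of all genes were, or in KI, where 1.95% were, none had an unadjusted p under 0.05 in that test, and DESeq2 called 0 past that change. The median log2 fold change of the 10 was 0.12 in KO and 0.17 in KI, beside medians over all tested genes of 0.03 and 0.05. KO and KI were compared with the same WT libraries, so the similarity of their values is not independent.

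**Figure D1:**
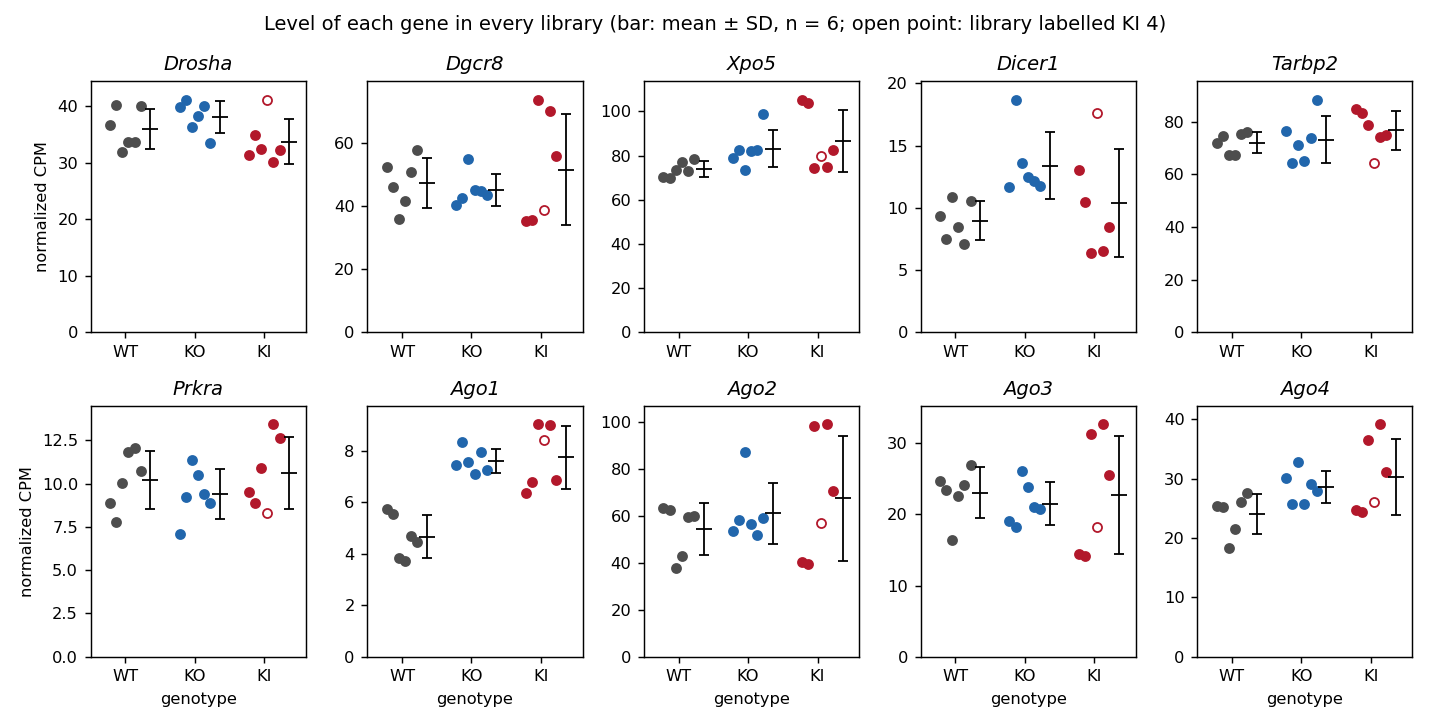
Normalized CPM of each gene (vertical axes, each from 0) in the 6 libraries of WT, KO and KI, with the mean and SD beside the points and the library labelled KI 4 as an open point. The KO and KI points of Ago1 (6.36 to 9.04 CPM) all lie above its WT points (3.73 to 5.76 CPM), and the KI points of Dgcr8, Ago2 and Ago3 spread more widely than those of WT or KO.

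The Microprocessor genes did not pass the test in either genotype. Drosha (ENSMUSG00000022191, chromosome 15, 12824815 to 12935291, plus strand, GRCm38) encodes the nuclease that makes the first cut. Its lowest, median and highest WT libraries had 31.9, 35.2 and 40.1 CPM. In KO the values were 33.5, 39.1 and 41.0 CPM, and in KI they were 30.1, 32.4 and 41.2 CPM. The 3 ranges overlapped nearly throughout, and the highest KI value was that of the library labelled KI 4. The log2 fold change was 0.08 in KO, with a 95% interval from -0.13 to 0.29, and -0.10 in KI, with an interval from -0.31 to 0.12. In KI it was -0.16 without the library labelled KI 4 (adjusted p = 0.268, edgeR).

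Dgcr8 (ENSMUSG00000022718, chromosome 16, 18253948 to 18289246, minus strand) encodes the RNA-binding partner of Drosha. Its WT libraries had 35.9, 48.3 and 57.9 CPM (lowest, median, highest), its KO libraries 40.3, 44.1 and 54.8 CPM, and its KI libraries 35.3, 47.3 and 73.8 CPM. The medians were close, while the KI libraries fell both below and above the WT range. KI 1 and KI 2 had 35.3 and 35.5 CPM and KI 3 and KI 5 had 73.8 and 70.3 CPM. Relative to WT it differed by a log2 value of -0.07 in KO (95% interval -0.44 to 0.29) and 0.12 in KI (95% interval -0.25 to 0.49).

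The Dgcr8 transcript itself holds a hairpin that the Microprocessor is known to cut, by which Drosha and Dgcr8 hold down Dgcr8 mRNA, and this hairpin is annotated as the microRNA gene Mir1306. In GENCODE M21 it lies in coding exon 2 of Dgcr8 in each of the 2 coding transcripts. RefSeq places it at chr16:18284239-18284317 of GRCm38.p6 on the minus strand, and its sequence is shown because it joins the first step of the pathway to one of the genes measured. Capitals mark the 2 mature arms in the hairpin, and the seed, bases 2 to 8, in each mature microRNA:
Mir1306 hairpin: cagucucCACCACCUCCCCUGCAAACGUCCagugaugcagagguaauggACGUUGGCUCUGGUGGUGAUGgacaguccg
mmu-miR-1306-5p: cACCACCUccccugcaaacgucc
mmu-miR-1306-3p: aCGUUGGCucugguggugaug
Mir1306 held 0 counts in all 18 libraries. Its bases also lie on the exon of Dgcr8, and reads that touch both genes cannot be told apart, so no level of this hairpin can be given. Mature microRNAs were not measured by these libraries. Of the exon bases of Dgcr8, 6.42% were shared with other annotated genes on the same strand, Mir1306 among them.

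Xpo5 (ENSMUSG00000067150, chromosome 17, 46202855 to 46242299, plus strand) encodes exportin 5, the nuclear export receptor of hairpin precursors. The WT libraries had 69.8, 73.2 and 78.6 CPM (lowest, median, highest), a narrow range with a coefficient of variation of 4.85%. The KO libraries had 73.6, 82.4 and 98.9 CPM and the KI libraries 74.1, 81.1 and 105.3 CPM. Above the WT range lay 5 KO and 4 KI libraries, and the others lay inside it. Xpo5 was not called, with a log2 fold change of 0.17 in KO (SE 0.11, adjusted p = 0.296, edgeR) and 0.23 in KI (SE 0.11, unadjusted p = 0.0471, adjusted p = 0.134, edgeR). In KI it became a call when WT 3, WT 6, KI 3 or KI 5 was left out, with adjusted p between 0.0757 and 0.0955. KI 1 and KI 2 were the high libraries here, with 105.3 and 103.6 CPM, against 74.1 and 74.8 CPM in KI 3 and KI 5.

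Dicer1 (ENSMUSG00000041415, chromosome 12, 104687742 to 104751952, minus strand) encodes the cytoplasmic nuclease that makes the microRNA duplex, and it rose in KO. Its WT libraries had 7.10, 8.90 and 10.8 CPM (lowest, median, highest) and its KO libraries 11.7, 12.3 and 18.7 CPM. Every KO library lay above every WT library, and KO 2 stood well above the other KO libraries, of which the next had 13.6 CPM. Its log2 fold change in KO was 0.58 (SE 0.21, adjusted p = 0.0495, edgeR), and without KO 2 it was 0.46 (adjusted p = 0.14). The call was also lost without WT 2 (0.53, adjusted p = 0.104) or WT 5 (0.52, adjusted p = 0.107).

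In KI the level of Dicer1 was 6.34, 9.47 and 17.61 CPM (lowest, median, highest), a range that took in the whole WT range. The highest value was that of the library labelled KI 4. KI 3 and KI 5 were the lowest with 6.34 and 6.54 CPM. The log2 fold change was 0.22 (SE 0.21, adjusted p = 0.508, edgeR), and without the library labelled KI 4 it was 0.00 (adjusted p = 0.994). KI and KO differed by -0.36 on the log2 scale (95% interval -0.79 to 0.07, adjusted p = 0.961), or by -0.58 without that library (adjusted p = 0.297), so the change of Dicer1 in KO was not shown to differ from that in KI.

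The libraries with the highest Dicer1, KO 2 and the library labelled KI 4, also had the highest sums of spermatogonium markers. These 7 markers summed to 72.8 CPM in KO 2 and 76.3 CPM in the library labelled KI 4, against 30.0 to 41.0 CPM in WT, and to 23.3 and 20.9 CPM in KI 3 and KI 5. The sums in KO 3, KO 4 and KO 5 were also above the WT range, at 54.9, 57.8 and 53.1 CPM. In KO 1 and KO 6 they were 34.2 and 36.7 CPM, inside the WT range. Dicer1 was above every WT library there too (11.7 CPM in both). KI 1 and KI 2 had sums of 46.9 and 43.2 CPM, above the WT range. Their Dicer1 was above the WT range in KI 1 and inside it in KI 2. KI 6 had a sum of 29.4 CPM, below the WT range, with Dicer1 inside its WT range. Of the 7 markers, 2 were called higher in KO and 1 in KI. The Leydig markers summed to 57.9 and 55.2 CPM in KO 2 and the library labelled KI 4, and to 18.99 and 14.5 CPM in KI 3 and KI 5. Whether RNA of other cell types had a part in the level of Dicer1 was not tested.

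The partners of Dicer did not pass the test in either genotype. Tarbp2 (ENSMUSG00000023051, chromosome 15, 102518192 to 102523676, plus strand), which encodes a double-stranded RNA-binding protein that steadies Dicer, had 67.2, 73.3 and 76.2 CPM in WT (lowest, median, highest), 64.2, 72.5 and 88.4 CPM in KO and 64.3, 76.9 and 84.7 CPM in KI. Its log2 fold change was 0.02 in KO (95% interval -0.19 to 0.23) and 0.09 in KI (95% interval -0.12 to 0.30). Prkra (ENSMUSG00000002731, chromosome 2, 76629898 to 76648015, minus strand) encodes the related protein PACT. Its levels were lower, with 7.79, 10.4 and 12.03 CPM in WT, 7.09, 9.31 and 11.4 CPM in KO and 8.30, 10.2 and 13.4 CPM in KI. The ranges of both genes overlapped across all genotypes, and the log2 fold change of Prkra was -0.12 in KO (95% interval -0.43 to 0.19) and 0.06 in KI (95% interval -0.25 to 0.36).

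Ago1 (ENSMUSG00000041530) was the gene of this set that differed most from WT, and it rose in both KO and KI. It encodes an Argonaute that binds microRNAs and is not known for strong cleavage of targets. Its WT libraries had 3.73, 4.58 and 5.76 CPM (lowest, median, highest), from 72 to 138 counts. Its KO libraries had 7.10, 7.51 and 8.34 CPM and its KI libraries 6.36, 7.64 and 9.04 CPM. Every KO and every KI library lay above every WT library, the library labelled KI 4 included, at 8.42 CPM. With Dicer1, 2 of the 10 genes lay wholly above WT in KO, as 6.62% of all tested genes did, and Ago1 was the only one of the 10 to do so in KI, as 5.97% of all tested genes did.

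The mean level of Ago1 was 4.67 ± 0.847 CPM in WT, 7.62 ± 0.460 CPM in KO and 7.75 ± 1.22 CPM in KI (SD, n = 6 libraries each). The log2 fold change was 0.70 in KO (SE 0.14, adjusted p = 0.000674, edgeR) and 0.73 in KI (SE 0.14, adjusted p = 0.000435, edgeR). Without the library labelled KI 4 it was 0.70 in KI (adjusted p = 0.00113). Both intervals, 0.42 to 0.99 in KO and 0.44 to 1.01 in KI, reached close to 1 log2 unit. Ago1 was called under each of 26 alternatives in both comparisons. These included the main fit at another threshold, and fits that left out only a library of the genotype not compared. When the close pairs were summed and the library labelled KI 4 was left out, which left 3 WT, 5 KO and 3 KI libraries, the adjusted p was 0.0266 in KO and 0.0442 in KI.

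The rise of Ago1 stood beside the marker differences given above. The Leydig markers, with a WT range of 10.8 to 22.4 CPM, did not order the libraries in the same way throughout. Within KO the library with the highest Ago1, KO 2 (8.34 CPM), also had the highest Leydig sum (57.9 CPM), and the library labelled KI 4 had 8.42 CPM of Ago1 and a Leydig sum of 55.2 CPM. KI 3 and KI 5 had the highest Ago1 (9.04 and 9.02 CPM) with Leydig sums of 18.99 and 14.5 CPM, and KI 2 had a Leydig sum of 74.4 CPM with 6.79 CPM of Ago1. The 6 macrophage and endothelial markers, like Ago1, summed higher in every KO and KI library than in any WT library. Their sums were 15.2 to 19.2 CPM in WT, then 19.7 to 31.0 CPM for the KO libraries and 24.3 to 32.2 CPM for the KI libraries. Of these 6, 2 were called higher in both genotypes, and the endothelial markers Pecam1 and Cdh5 were at or under 1 CPM in each genotype. The summed elongating spermatid markers were below the WT range in every KO and KI library. What part these marker differences had in the level of Ago1 relative to WT was not tested.

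**Figure D2:**
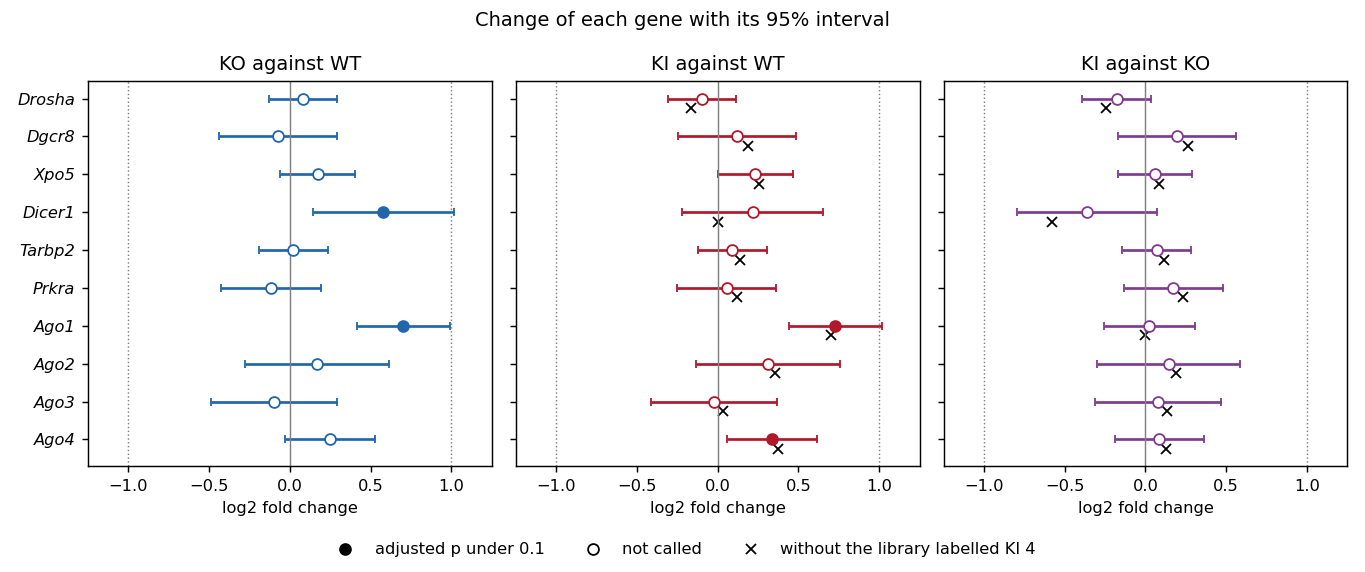
Log2 fold change of each gene (horizontal axes) with its 95% interval in KO against WT, KI against WT and KI against KO. Filled points mark an adjusted p under 0.1, crosses the value without the library labelled KI 4, and dotted lines a change of 1 log2 unit. Ago1 is filled in both comparisons with WT, Dicer1 in KO (0.58) and Ago4 in KI (0.34), and no point is filled in KI against KO.

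Ago4 (ENSMUSG00000042500) encodes an Argonaute that is enriched in male germ cells. Its lowest, median and highest libraries had 18.3, 25.3 and 27.6 CPM in WT, 25.7, 28.5 and 32.8 CPM in KO and 24.4, 28.6 and 39.1 CPM in KI. The upper WT libraries overlapped with the lower KO and KI libraries. Ago4 rose in KI by a log2 fold change of 0.34 (SE 0.13, adjusted p = 0.0716, edgeR), or 0.38 without the library labelled KI 4 (adjusted p = 0.0545). In KO the value was 0.25 (SE 0.13, adjusted p = 0.198, edgeR). The call in KI was lost without WT 3 (0.34, adjusted p = 0.105), WT 4 (0.30, adjusted p = 0.137), KI 3 (0.27, adjusted p = 0.16), KI 5 (0.25, adjusted p = 0.188) or KI 6 (0.33, adjusted p = 0.111). With the close pairs summed it was 0.42 (adjusted p = 0.244).

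Ago2 (ENSMUSG00000036698, chromosome 15, 73095844 to 73184935, minus strand) encodes the Argonaute with slicer activity, which can cut a fully paired target. Its WT libraries had 38.0, 59.8 and 63.5 CPM (lowest, median, highest), its KO libraries 52.0, 57.5 and 87.2 CPM and its KI libraries 39.5, 64.0 and 99.2 CPM. The medians lay close together, and the libraries of each genotype were spread far more than those of Tarbp2 or Drosha. Neither log2 fold change was called, at 0.17 in KO (95% interval -0.28 to 0.61) and 0.31 in KI (95% interval -0.13 to 0.76).

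Ago3 (ENSMUSG00000028842), whose protein binds microRNAs like that of Ago1, had 16.4, 23.8 and 27.0 CPM in WT, 18.2, 20.9 and 26.2 CPM in KO and 14.2, 21.9 and 32.7 CPM in KI (lowest, median, highest). Its ranges overlapped, with KI reaching both lower and higher than WT. The log2 fold change was -0.10 in KO (95% interval -0.49 to 0.29) and -0.02 in KI (95% interval -0.41 to 0.37).

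Ago3, Ago1 and Ago4 lie near each other on the minus strand of chromosome 4, at 126331704 to 126429556, 126435012 to 126468583 and 126489541 to 126533472. The gap is 5455 bp between Ago3 and Ago1 and 20957 bp between Ago1 and Ago4, and the annotated genes Gm12929 and Gm12928 lie between Ago3 and Ago4. None of the exon bases of the 3 genes were shared with another annotated gene on either strand. Of the 3 genes, Ago1 was called in both KO and KI, Ago4 in KI and Ago3 in neither, so their upstream bases are shown beside each other. RefSeq (GRCm38.p6) gives the bases up to 250 before each start, without bases inside the gene as counted, on the minus strand, at chr4:126429557-126429792 for Ago3, chr4:126468632-126468881 for Ago1 and chr4:126533473-126533708 for Ago4. Capitals mark matches, on either strand, to any of 5 motifs. The first was the cyclic AMP response element, spelled TGACGTCA. Its half-site was searched as TGACG and therefore lies within the full element. The others were the CCAAT box, the GC box spelled GGGCGG, and the TATA box spelled TATAAA:
Ago3 upstream: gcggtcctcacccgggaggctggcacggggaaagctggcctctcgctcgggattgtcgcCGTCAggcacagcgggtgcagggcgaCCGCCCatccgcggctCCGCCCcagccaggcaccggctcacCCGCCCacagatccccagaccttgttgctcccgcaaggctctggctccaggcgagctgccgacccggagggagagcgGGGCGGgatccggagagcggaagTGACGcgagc
Ago1 upstream: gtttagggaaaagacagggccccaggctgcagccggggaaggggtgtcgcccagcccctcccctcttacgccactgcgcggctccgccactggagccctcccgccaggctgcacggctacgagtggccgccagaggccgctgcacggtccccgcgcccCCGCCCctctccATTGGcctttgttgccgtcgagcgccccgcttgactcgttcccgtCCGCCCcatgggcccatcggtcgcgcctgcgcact
Ago4 upstream: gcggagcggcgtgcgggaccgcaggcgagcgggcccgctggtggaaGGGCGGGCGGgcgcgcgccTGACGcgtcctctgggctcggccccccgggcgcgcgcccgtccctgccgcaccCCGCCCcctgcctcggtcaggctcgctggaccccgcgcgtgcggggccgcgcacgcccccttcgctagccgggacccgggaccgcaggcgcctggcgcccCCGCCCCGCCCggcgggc

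The 3 upstream regions were rich in G and C, at 73.6% for Ago3, 72.4% for Ago1 and 85.6% for Ago4, beside a median of 52.4% over 32817 promoters. Over the whole 250 bases, the GC box was found 4 times for Ago3, 2 times for Ago1 and 5 times for Ago4, and in 32.7% of all promoters. Ago1 alone of the 3 held a CCAAT box, found in 33.8% of all promoters, and it held no half-site, found 2 times for Ago3 and 1 time for Ago4 and in 17.8% of all promoters. Neither the full cyclic AMP element, found in 1.55% of all promoters, nor the TATA box, found in 12.4%, was found in any of the 9 genes with an entry. Over those 9 genes, 8 held a GC box, 5 a CCAAT box and 5 a half-site. Ago2 was not among the entries. These matches describe letters only.

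The level per kilobase of exon allows the genes to be compared with each other. In WT the order by median was Xpo5 (19.7 CPM per kilobase), Tarbp2 (16.1), Dgcr8 (6.28), Drosha (5.92), Prkra (5.12), Ago2 (4.26), Ago4 (3.65), Ago3 (1.44), Ago1 (0.563) and Dicer1 (0.532). Xpo5, Tarbp2 and Dgcr8 had WT ranges apart from each other, as had Ago4 and Ago3, and Ago3 and Ago1. The ranges of neighbours overlapped from Dgcr8 to Ago4 and between Ago1 and Dicer1. With the longest annotated transcript as the length, Tarbp2 (26.8) stood above Xpo5 (14.4) and Dicer1 (0.904) above Ago1 (0.633), so these orders rest on the length used. That transcript of Xpo5 (5081 bases) was longer than the exons in which its reads were counted (3709 bases), so 14.4 may be too low. On either length Ago3, Ago1 and Dicer1 were the lowest 3 in WT.

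Each Argonaute was also expressed as its share of the summed level per kilobase of all 4 in a library, a value that does not depend on how libraries were scaled. Ago2 and Ago4 made up most of the sum, with medians of 41.7% and 37.7% in WT, 40.4% and 37.9% in KO and 41.6% and 37.6% in KI. The share of Ago1 ranged from 5.27% to 6.92% in WT, from 6.92% to 10.3% in KO and from 7.04% to 10.4% in KI. The share of Ago3 ranged from 13.9% to 17.1% in WT, from 11% to 14.3% in KO and from 10.7% to 12.9% in KI. Thus the share of Ago1 in KO began just where that of WT ended and in KI lay wholly above it, and that of Ago3 in KI lay wholly below WT, while the shares of Ago2 and Ago4 overlapped. These shares are described without a test, and Ago3 itself was not called in either comparison.

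**Figure D3:**
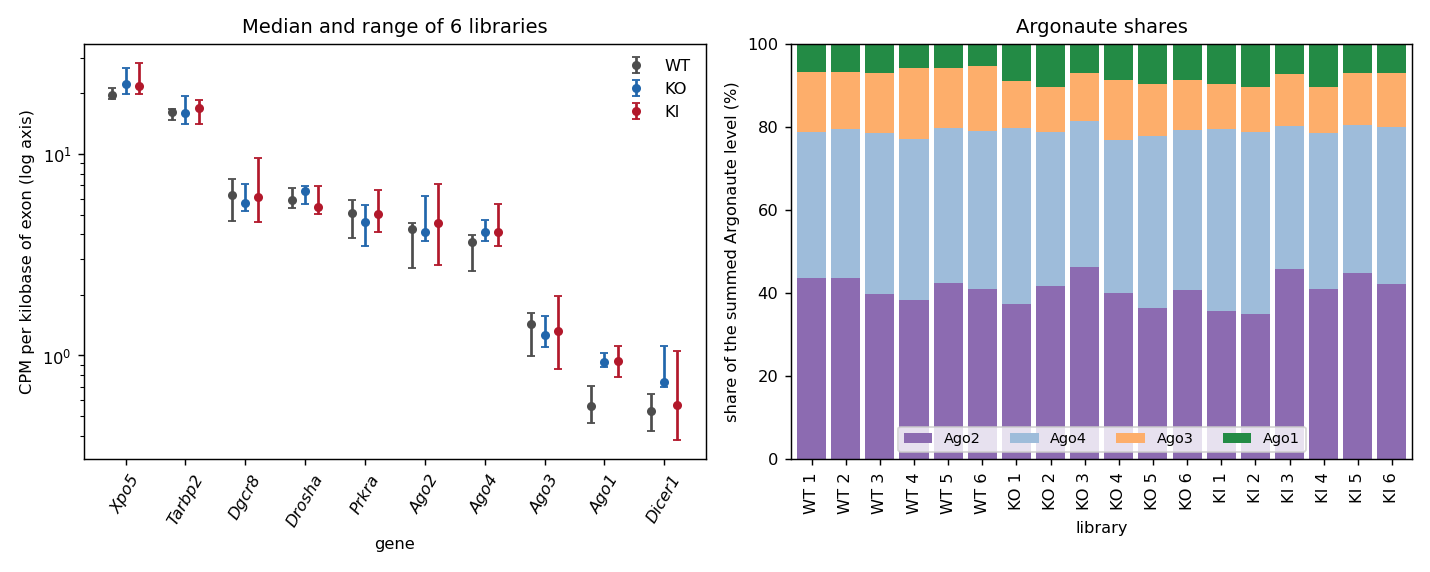
Left, median and range over 6 libraries of each gene in CPM per kilobase of exon, on a log axis, for WT, KO and KI. Right, the share in percent of each Argonaute in the summed Argonaute level of every library. Xpo5 and Tarbp2 lead and Ago1 and Dicer1 are lowest in WT, and the share of Ago1 is 5.27% to 6.92% in WT and 6.92% to 10.4% in KO and KI.

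Within KI, libraries differed more for several of these genes than the genotypes did. The coefficient of variation over the KI libraries was 39.6% for Ago2, 36.4% for Ago3, 34.1% for Dgcr8 and 41.6% for Dicer1, against 20.3%, 15.5%, 16.7% and 17.5% in WT. In the same order, the KI values were 42.1%, 37.7%, 33.9% and 31.4% without the library labelled KI 4. For Dgcr8, Ago2 and Ago3 the close pair KI 1 and 2 was lowest and the close pair KI 3 and 5 was highest, with KI 6 and the library labelled KI 4 between them. The mean of KI 3 and 5 over the mean of KI 1 and 2 was 2.47 for Ago2, 2.24 for Ago3, 2.03 for Dgcr8 and 1.54 for Ago4, and it was 0.549 for Dicer1 and 0.713 for Xpo5. Drosha and Tarbp2 differed little between the pairs, with ratios of 0.946 and 0.911.

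Such differences were not particular to these genes. A ratio past 1.5 in either direction was found for 5 of the 10 genes and for 44.8% of the 21058 genes tested. Counts on mitochondrial genes made up 9.77% and 8.58% of the total in KI 1 and KI 2 and 17.2% and 17.5% in KI 3 and KI 5, and this share was highest in KO 3, at 23.6%, which was also the KO library with the highest Ago2 (87.2 CPM), Ago3 (26.2 CPM), Ago4 (32.8 CPM) and Dgcr8 (54.8 CPM). KO 2 had the next highest share in KO, 19.3%, but the lowest Ago3 (18.2 CPM) and Ago4 (25.7 CPM) of that genotype. The library labelled KI 4 had the highest share in KI, 19.4%, with 38.8 CPM of Dgcr8, 57.2 CPM of Ago2 and 18.3 CPM of Ago3, each below the KI median. In WT the share ranged from 9.94% to 13.5%. Its part in the levels of these genes was not tested.

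**Figure D4:**
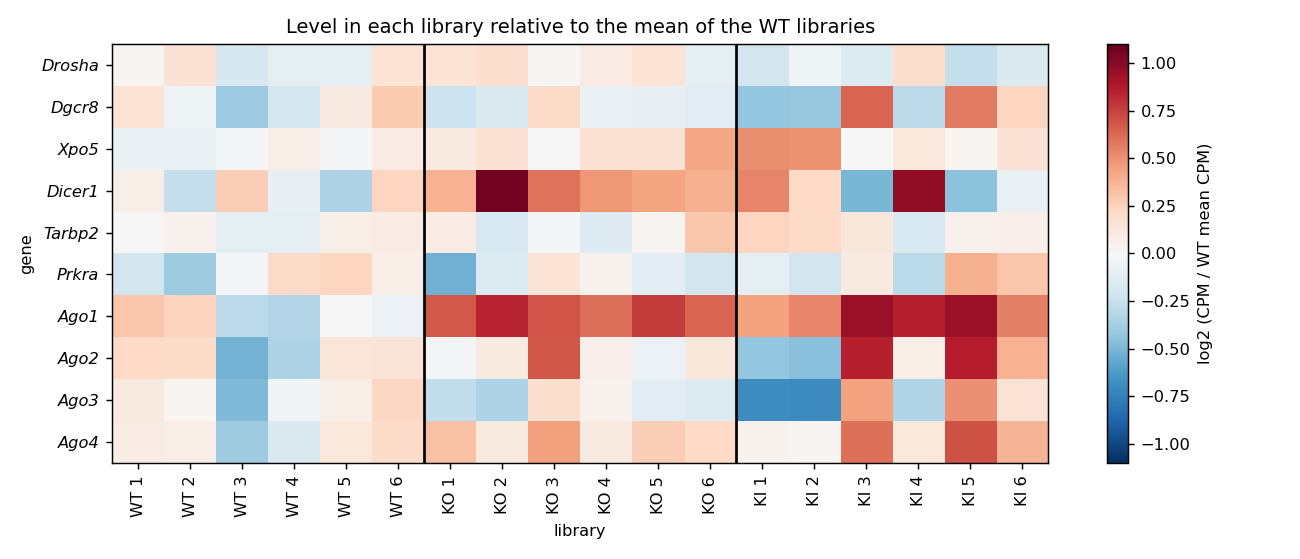
Colour gives the log2 ratio of the level of each gene (rows) in each library (columns) to its WT mean, with lines between WT, KO and KI. Ago1 is red in all KO and KI libraries, while Dgcr8, Ago2 and Ago3 are blue in KI 1 and KI 2 and red in KI 3 and KI 5, and Dicer1 is darkest in KO 2 and KI 4.

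Direct comparison of KI with KO called none of the 10 genes with edgeR's quasi-likelihood test, and none had an unadjusted p under 0.05, nor did DESeq2 call any. Over all tested genes 0.076% were called higher and 0.0237% lower, and 0.00475% past 1 log2 unit. Without the library labelled KI 4 these shares were 0.282% and 0.24% for a change of any amount, and again none of the 10 was called. The difference of Ago1 between KI and KO was 0.02 (95% interval -0.26 to 0.31), that of Ago4 was 0.09 (95% interval -0.19 to 0.36) and that of Drosha was -0.18 (95% interval -0.39 to 0.03), all on the log2 scale. In the same order, these differences were -0.003, 0.125 and -0.246 without the library labelled KI 4.

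Other genes of the pathway were read from 4 lists, whose counts stand beside the shares of all tested genes called higher and lower, 16.4% and 13.5% in KO and 16.1% and 15.4% in KI. Of 11 cofactors of nuclear processing and export, 2 rose and 1 fell in KO, with the same counts in KI, near those shares. Adar, which edits adenosines of double-stranded RNA including primary microRNAs, went from 5.28 ± 0.550 CPM in WT to 8.26 ± 1.06 in KO and to 9.36 ± 1.58 in KI (SD, n = 6), with log2 fold changes of 0.64 (adjusted p = 0.00125) and 0.82 (adjusted p = 9.27e-05). Khsrp, a splicing factor that also binds some precursors, went from 46.4 CPM to 64.2 and 63.5 CPM (log2 fold changes 0.47 and 0.45). Ncbp2, a subunit of the nuclear cap-binding complex, fell from 38.6 ± 1.36 CPM to 24 ± 3.61 and 23.9 ± 3.30, by 0.68 and 0.69 on the log2 scale (adjusted p = 0.000114 and 8.49e-05, edgeR).

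Of 10 genes of tailing, trimming and turnover, 1 rose and 1 fell in KO, and 2 rose and 3 fell in KI, beside the same background. Lin28a, which binds let-7 precursors and recruits a uridylating enzyme to them, had the largest change of any gene in the 4 lists. It went from 1.34 ± 0.204 CPM in WT to 3.83 ± 0.698 in KO and 3.63 ± 1.29 in KI (SD, n = 6), log2 fold changes of 1.5 (SE 0.22, adjusted p = 2.65e-05) and 1.43 (SE 0.22, adjusted p = 4.03e-05), and it was not called past 1 log2 unit (adjusted p = 0.564 and 0.856, edgeR's glmTreat). It is also a known marker of undifferentiated spermatogonia. The 7 spermatogonium markers summed to 30 to 41 CPM in WT, 34.2 to 72.8 CPM in KO and 20.9 to 76.3 CPM in KI. Whether RNA of spermatogonia had a part in the level of Lin28a was not tested. Tent2, a poly(A) polymerase, fell by 0.30 in KO and 0.39 in KI on the log2 scale. In KI the exonuclease Eri1 fell by 0.29 and the deadenylase Parn by 0.36, and the uridylyltransferase Tut7 rose by 0.32 (adjusted p = 0.0678, edgeR).

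Among the 8 genes that load Argonaute, 3 rose in KO and 2 in KI, or 1 in KI without the library labelled KI 4, beside 16.4% and 16.1% of all tested genes. Tsnax and Tsn encode the subunits of a nuclease complex, C3PO, that removes the discarded strand. Tsnax went from 21.5 ± 2.36 CPM in WT to 29.7 ± 4.46 in KO and 30.1 ± 4.37 in KI (SD, n = 6), and Tsn from 14.1 ± 2.13 to 18.1 ± 1.77 in KO (log2 fold change 0.36, adjusted p = 0.0313). The chaperone gene Hsp90ab1 went from 275.7 ± 62.4 CPM to 407 ± 54.8 in KO and 391.7 ± 120.8 in KI (edgeR's adjusted p = 0.0318 and 0.0504).

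Of 28 effectors of silencing, 9 rose and 2 fell in KO, and 7 rose and 2 fell in KI (9 and 2 without the library labelled KI 4), beside 16.4% higher and 13.5% lower of all tested genes in KO and 16.1% and 15.4% in KI. Fmr1, an RNA-binding protein that represses translation, went from 14.6 ± 1.34 CPM in WT to 25.9 ± 2.51 in KO and 22.5 ± 3.33 in KI (SD, n = 6), log2 fold changes of 0.83 (adjusted p = 1.02e-05) and 0.62 (adjusted p = 0.00023). Ddx6, a helicase of processing bodies, went from 41.3 ± 8.63 CPM to 70.1 ± 7.87 and 69.7 ± 15.5, and Edc4, a scaffold of the decapping complex, from 103.4 ± 12.9 to 154.8 ± 25.5 and 174.5 ± 15.2. Eif4enif1, which binds the cap-binding protein in the same bodies, rose by 0.51 in KO and 0.60 in KI on the log2 scale (adjusted p = 0.00202 and 0.000405, edgeR). Dcp1a, a decapping activator, fell by 0.42 in KO and 0.37 in KI, and Cnot6l, a deadenylase, fell by 0.39 and 0.49.

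The median log2 fold changes of the lists in KO were 0.11 for nuclear cofactors, -0.15 for tailing and turnover, 0.23 for loading and 0.19 for effectors, and in KI 0.17, -0.07, 0.20 and 0.20. The medians over all tested genes were 0.03 and 0.05.

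**Figure D5:**
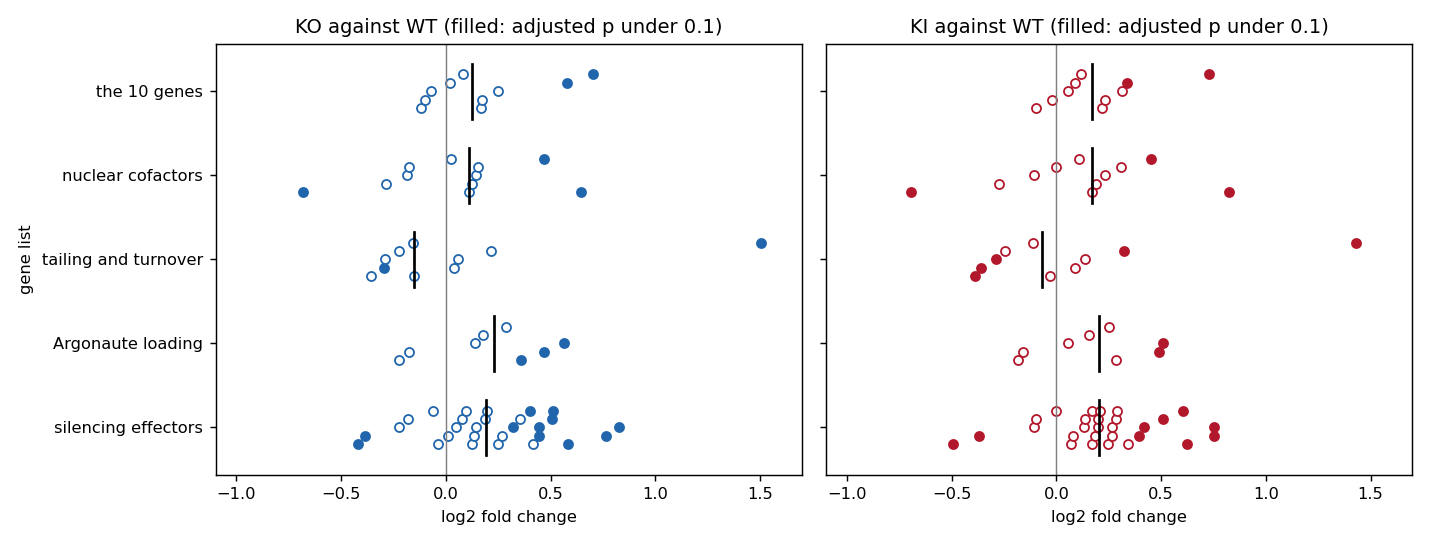
Log2 fold change (horizontal axes) of each of the 10 genes and of each gene in the 4 lists, in KO against WT and KI against WT, with a black line at the median of each list. Filled points mark an adjusted p under 0.1. The rightmost point in both panels is Lin28a, at 1.5 and 1.43, and the leftmost is Ncbp2, at -0.68 and -0.69.

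The table also held 2207 loci annotated as microRNA genes, of which 130 passed the filter on low counts. Among these, 3 were called higher and 5 lower in KO, and 1 higher and 6 lower in KI. Over all tested genes 16.4% were called higher and 13.5% lower in KO, and 16.1% and 15.4% in KI. The lowest adjusted p in both comparisons belonged to predicted loci that overlapped other genes. Gm47307 (chromosome 17, 91088406 to 91088550) went from 2.89 ± 0.553 CPM in WT to 0.641 ± 0.292 in KO and 0.838 ± 0.181 in KI (SD, n = 6), with log2 fold changes of -2.14 and -1.78, and shared exon bases on the same strand with the noncoding RNA gene Gm10308, which had -2.01 and -2.29. Gm22721 (chromosome 10, 80382302 to 80382384) had log2 fold changes of -1.67 and -1.92 and lay opposite an exon of Mex3d, which had -1.63 and -1.83. Gm44344, Gm44313 and Gm44335, with 0.85, 0.78 and 0.66 in KO, each lay opposite an exon of a histone gene. In KO the log2 fold change of that histone gene was 0.76 for Hist1h2aa opposite Gm44344, -0.19 for Hist3h2a opposite Gm44313 and 0.73 for H2afx opposite Gm44335. Gm44313 also lay opposite an exon of Trim17, which had -0.84 in KO (adjusted p = 0.00994, edgeR).

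Gm23222, inside an intron of Lin54, rose in KI by 0.90 on the log2 scale, from 0.355 CPM in WT to 0.671 CPM in KI. Gm24187 fell by 0.63 in KI, from 142.7 ± 40.8 to 92.3 ± 27.1 CPM, with a KO level of 98.4 ± 28.5 CPM (SD, n = 6). Mir683-2 (chromosome 13, 50600972 to 50601080, minus strand) was among the 3 loci that fell in KO with the smallest adjusted p, and no other gene lies at its place. Its level was 0.838 ± 0.278 CPM in WT and 0.412 ± 0.156 CPM in KO, with 0.567 ± 0.227 CPM in KI (SD, n = 6), and its log2 fold change in KO was -1.01 (SE 0.32, adjusted p = 0.0233, edgeR). Its mature sequence in RefSeq is shown with the seed in capitals, because it was the locus of those 3 that names a known microRNA:
mmu-miR-683: cCUGCUGUaagcuguguccuc
These libraries held longer RNA, so the counts stand for precursor or overlapping transcripts and not for mature microRNAs.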

How the data were processed

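RNA of RS was measured in 18 libraries, made from total RNA with a Takara Pico kit without polyA selection. The authors trimmed the paired reads with cutadapt 3.4, aligned them to GRCm38 (mm10) with STAR 2.7.8a and assigned them by strand to GENCODE M18 genes with featureCounts (Subread 2.0.1), and deposited raw counts for 54232 genes with exon length in bases, another column of the deposited table. GENCODE M21 gave a symbol to 54079 identifiers.

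The counts were filtered with filterByExpr, scaled with TMM factors and fitted with edgeR 4.0.16 (limma 3.58.1, R 4.3.3) on genotype alone over all libraries. Any change was tested with glmQLFTest and a change past 1 log2 unit with glmTreat, with Benjamini-Hochberg adjustment over 21058 genes and a threshold of 0.1. Intervals are 95%. The code was tested on simulated data. Levels per kilobase are normalized CPM divided by the deposited length. The use of molecular identifiers is not given in the sources used here, so copies made by PCR may be among the counts.

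The genes, lists and alternatives were chosen with earlier results of these data known. The named genes were the 10, Ddx25, and from each list up to 3 called genes in each direction with the smallest adjusted p in KO and in KI. Alternatives were DESeq2 1.42.0, its size factors, 2 other filters, only the genotypes compared, a replicate block, a threshold of 0.05, summed close pairs, each library left out, and another length. Close pairs had an index under 4, the median squared deviation of counts over that of counting noise for genes with at least 20 counts. Sequences are from RefSeq. Plots used matplotlib 3.10.9 under Python 3.11.15. Small RNA libraries were not analysed here.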

Additional observations from a re-analysis of the deposited data

Results flagged for a closer look

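A library was marked where its distance from the nearest other library of its genotype took up more of the range of the 6 libraries than the 95% limit of Dixon's test. Chance marks about 1 in 20 groups, and 5 of 33 groups were marked, each at its highest library. Ddx25 in the library labelled KI 4 was 56.9 CPM, with 0.519 CPM in the next KI library. Dicer1 in KO 2 was 18.7 CPM, with 13.6 CPM in the next, and this library and the library labelled KI 4 were the closest pair of all. In KO 3, which had the highest mitochondrial share of all libraries (23.6%), Ago2 was 87.2 CPM, with 59.2 CPM in the next KO library, and Dgcr8 was 54.8 CPM, with 44.95 CPM in the next. Xpo5 in KO 6 was 98.9 CPM, with 82.5 CPM in the next.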

How the results depend on the processing

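In KO, 2 of the 10 genes were called for any change, and between 1 and 2 when each library was left out, with 1 (Ago1) without WT 2, WT 5 or KO 2. In KI, 2 were called, and between 1 and 3 when each library was left out, with 1 without WT 4 or KI 6 and 3 without WT 6, where Xpo5 was added. In KI, 1 gene (Ago1) was called with no filter on low counts, at an adjusted p threshold of 0.05, and with the close pairs summed. No gene was called past 1 log2 unit under any alternative. Of 18 correlations of same-numbered libraries of different genotypes, 7 passed 0.1 (range -0.53 to 0.57). They were not compared with those of differently numbered libraries, so they cannot settle whether replicate numbers pair the libraries. With a replicate block 2 genes were called in KO and 2 in KI, the same as without, and Dicer1 had adjusted p = 0.056 in KO. Over 26 alternatives, Dicer1 was called in KO in 23 (adjusted p from 0.00684 to 0.14), Ago4 in KI in 18 and Xpo5 in KI in 6. The cause of these differences was not tested. With the other length, the WT level per kilobase moved beyond its spread for 6 of the 10 genes, and the median WT share of Ago2 was 40.5% in place of 41.7%. The counts of Ago1 (72 to 199 per library) and Dicer1 (139 to 428) limit the precision of their values.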
